A study of Mus musculus with 9 samples.

Results

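Cebpa, Cebpb, Cebpd, Cebpe, Cebpg and Spi1 encode 5 members of the C/EBP family of transcription factors and PU.1, and were taken by symbol from the table of raw counts. They are 6 of its 21159 genes, and all 6 passed the filter on low counts that left 11196 genes for testing. RNA was measured by sequencing 3′ tags (QuantSeq) in 9 mouse libraries, 3 in each of 3 groups. All cells derived from lineage-depleted bone marrow of Runx2fl/fl mice carrying a CreERT2 transgene, a Cre recombinase that 4-hydroxytamoxifen (4-OHT) activates. The labels name no promoter for the transgene and no age or sex. For all 9 libraries they list the cytokines IL-3 at 10 ng/ml, IL-6 at 10 ng/ml and SCF at 50 ng/ml. The Runx2ko group consisted of cells transformed by a KMT2A-MLLT1 (MLL-ENL) eGFP retrovirus and treated with 400 nM 4-OHT for 24 hours. The Runx2wt group consisted of transformed cells of the same genotype without 4-OHT, given ethanol. The BM progenitor group was untreated and was collected before the first replating in methylcellulose, whereas the transformed cells had been replated and then grown in suspension. The labels do not say outright whether the BM progenitor RNA came from cells that had taken up the virus. The 4-OHT itself, the activated Cre and the loss of Runx2 coincide in the Runx2ko label, and growth form and time in culture go with the transformed state, so these cannot be told apart from the groups.

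C/EBP factors are basic leucine zipper proteins that bind DNA as homodimers or as heterodimers with each other, and PU.1 is an ETS-domain factor. C/EBP-alpha and PU.1 together set the granulocyte and monocyte fates of haematopoietic progenitors, PU.1 being needed in the B lineage as well. C/EBP-beta and C/EBP-delta are induced by cytokines and inflammation, C/EBP-epsilon acts late in granulocyte maturation, and C/EBP-gamma lacks a classical activation domain and serves as a dimer partner, of ATF4 among others. RUNX1, a relative of RUNX2, is known to act at an enhancer upstream of Spi1.

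Cebpa and Cebpg are neighbours on chromosome 7, 62719 bases apart and on opposite strands, and their levels followed different patterns across the libraries. Their upstream sequences are therefore shown first. Cebpa lies on the plus strand at chr7:35119293-35121928 and Cebpg on the minus strand at chr7:35046422-35056573 (GRCm38). The 250 bases before each start annotated by RefSeq, chr7:35119043-35119292 for Cebpa and chr7:35056567-35056816 for Cebpg, are given 5′ to 3′ on the strand of the gene, from RefSeq (GRCm38.p6). Capitals mark CCAAT boxes, which here stand on the opposite strand and so read ATTGG.
Cebpa upstream: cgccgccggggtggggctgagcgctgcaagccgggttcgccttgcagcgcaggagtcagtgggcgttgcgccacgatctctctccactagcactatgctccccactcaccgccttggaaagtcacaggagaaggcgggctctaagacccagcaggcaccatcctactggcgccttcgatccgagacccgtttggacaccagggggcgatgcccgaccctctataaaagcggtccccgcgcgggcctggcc
Cebpg upstream: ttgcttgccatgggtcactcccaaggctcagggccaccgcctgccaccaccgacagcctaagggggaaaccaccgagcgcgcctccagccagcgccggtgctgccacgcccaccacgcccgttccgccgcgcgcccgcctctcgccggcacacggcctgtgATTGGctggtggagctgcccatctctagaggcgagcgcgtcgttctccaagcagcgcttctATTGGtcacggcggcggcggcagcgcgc
The Cebpg sequence held 2 CCAAT boxes, beginning 89 and 28 bases before the start, and a CCAAT box was present in 33.8% of the 32851 upstream sequences of this length. Neither sequence, nor that of Cebpb, held the letters TGTGGT (the RUNX motif, present in 14.0% of upstream sequences), TTNNGNAA (C/EBP, 36.8%), GAGGAA (ETS, 23.3%), TGATGNAA (C/EBP-ATF, 3.45%) or TGACGT (cAMP response, 6.47%). Both strands were searched, and overlapping matches were counted. The absence of these letters concerns this window only. The guanine and cytosine content was 66.4% for Cebpa, 70.8% for Cebpg and 81.6% for Cebpb.

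Runx2, the targeted gene, had 21.0, 120.1 and 134.7 CPM (tag counts per 1000000 tags of the library size scaled by TMM) in Runx2ko replicates 1, 2 and 3, 159.4, 178.8 and 131.0 CPM in Runx2wt, and 53.3, 46.7 and 58.8 CPM in BM progenitors. Runx2ko replicates 2 and 3 thus overlapped Runx2wt or lay just under it, and the 3′ tags may lie outside the floxed exon, which the labels do not name. Library totals were 3118594 to 5348177 tags. The correlation of log2 CPM between Runx2ko replicate 1 and each of the other 5 transformed libraries was 0.793 to 0.816, against 0.934 to 0.959 among those 5, so this library stood apart, and whether it came from another kind of culture than its label says was not tested. It also held other cell type markers. The summed level of 10 mast cell and basophil markers was 3335, 40.9 and 468 CPM in Runx2ko, 48.9, 146 and 304 CPM in Runx2wt, and 920.1 to 1059.8 CPM in BM progenitors. Cpa3 alone had 2002 CPM in Runx2ko replicate 1. Mcpt8, Prss34 and Hdc were lower there than in every BM progenitor library, and the other markers of the list higher. Cma1 had 98.3, 7.04 and 128 CPM in Runx2ko, 3.39, 39.4 and 110 CPM in Runx2wt, and at most 0.425 CPM in BM progenitors. Tpsb2 had 203, 5.52 and 81.8 CPM in Runx2ko, 1.88, 24.9 and 62.6 CPM in Runx2wt, and 0 CPM in BM progenitors. The 5 megakaryocyte markers summed to 770.2, 16.9 and 17.6 CPM in Runx2ko, 6.96 to 29.8 CPM in Runx2wt, and 71.1 to 73.9 CPM in BM progenitors. Itga2b alone made up 688 CPM of the sum in Runx2ko replicate 1. There Ppbp had 42.4, Gp9 3.56 and Gp1ba 2.26 CPM. Pf4 had 33.6 CPM there, against 34.5, 21.8 and 32.3 CPM in BM progenitors. The 13 monocyte and macrophage markers summed to 607, 5233 and 11044 CPM in Runx2ko, 6743, 8250.2 and 12689 CPM in Runx2wt, and 4105 to 5917 CPM in BM progenitors. The 8 eosinophil markers summed to 8.75 to 18.1 CPM in Runx2ko and 2.49 to 4.52 CPM in Runx2wt, where 4 of them were at 0, against 1377 to 1839 CPM in BM progenitors. The 11 neutrophil markers summed to 575, 4418 and 7302 CPM in Runx2ko, 343, 2722 and 888 CPM in Runx2wt, and 7631 to 10414 CPM in BM progenitors. In BM progenitor replicate 1, S100a8 had 5430.3 and S100a9 3358.6 CPM of this sum. Ltf, Camp, Ngp, Retnlg and S100a9 were lower in every transformed library than in every BM progenitor library. Ly6g was higher in every transformed library, at 33.3 to 171.4 CPM in Runx2ko against at most 2.34 CPM in BM progenitors. Lcn2 had 277.5 to 349.8 CPM in Runx2ko and 50.4 to 364.5 CPM in Runx2wt, against at most 112.8 CPM in BM progenitors. Mmp8 overlapped between the groups. The 9 stem and progenitor markers summed to 423, 82.6 and 152 CPM in Runx2ko and 66.2 to 93.8 CPM in Runx2wt, against 259 to 264 CPM in BM progenitors. In bulk RNA, fewer cells of a type and less RNA per cell cannot be told apart, and the part of these markers in the results below was not tested.

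All 6 genes were expressed in every library. Because each transcript yields a tag at its 3′ end, CPM needs no division by length, although priming can differ between genes. By mean level over the 9 libraries the order was Spi1 (310.6 CPM, above 94.9% of tested genes), Cebpb (240.5 CPM), Cebpa (143 CPM), Cebpd (106 CPM), Cebpg (86.5 CPM) and Cebpe (18.8 CPM, above 39.2%). The ranges of neighbours in this order overlapped across libraries except between Cebpg and Cebpe.

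**Figure D1:**
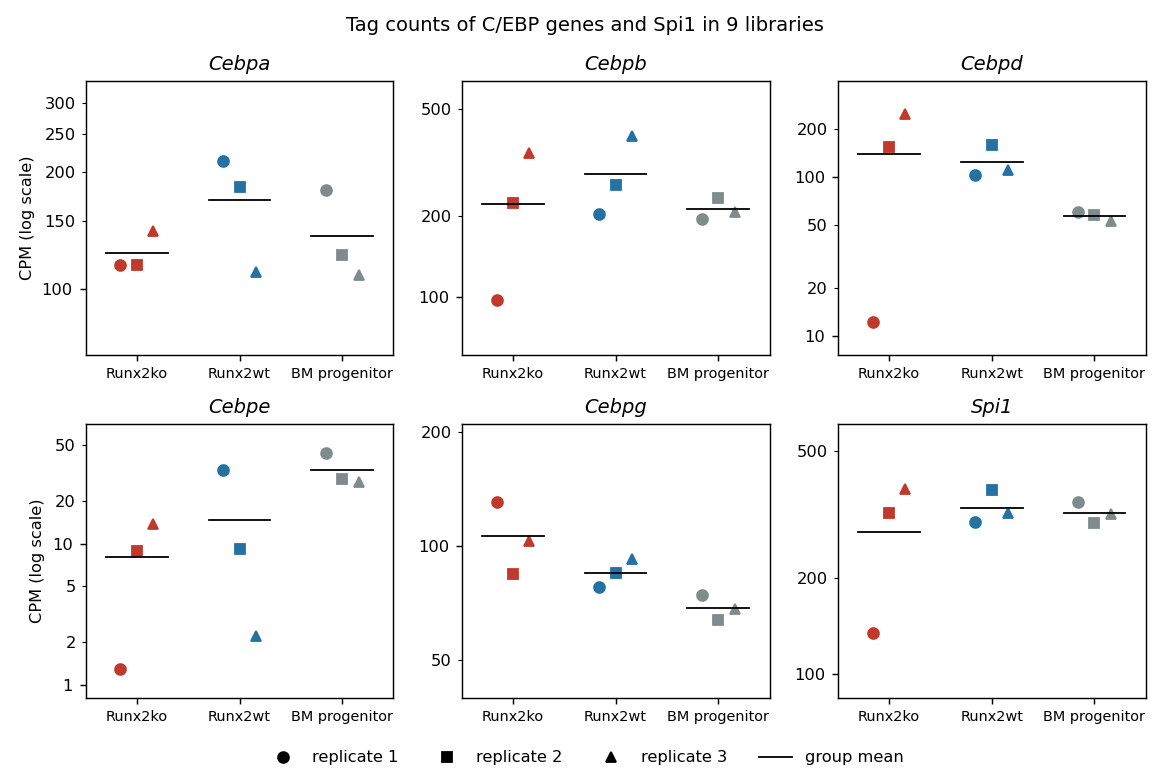
Level of each of the 6 genes in every library, in CPM on a log axis, with points for single libraries and lines for the means of Runx2ko, Runx2wt and BM progenitors (n = 3 each). Runx2ko replicate 1 is the lowest of the 9 libraries for Cebpb, Cebpd, Cebpe and Spi1 and the highest for Cebpg.

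Spi1 (ENSMUSG00000002111, chr2:91082390-91115756, plus strand), the gene for PU.1, had 135, 321 and 379.7 CPM in Runx2ko, 299, 379 and 319.9 CPM in Runx2wt, and 346, 298 and 317 CPM in BM progenitors. Runx2ko replicate 1 was the lowest library and the other 8 lay within a narrow band in which the groups overlapped. Spi1 differed by 0.05 on the log2 scale between Runx2wt and BM progenitors (95% interval -0.65 to 0.76; adjusted p = 0.926, edgeR quasi-likelihood test) and by -0.26 between Runx2ko and Runx2wt (interval -0.96 to 0.45; adjusted p = 0.862). Without Runx2ko replicate 1 the intervals narrowed to -0.28 to 0.38 for Runx2wt against BM progenitors and -0.29 to 0.44 for Runx2ko against Runx2wt, where the difference became 0.07.

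Cebpa (ENSMUSG00000034957) encodes C/EBP-alpha, which commits progenitors to the granulocyte-monocyte path and restrains the cell cycle. It had 116, 115 and 141 CPM in Runx2ko, 213, 183 and 111 CPM in Runx2wt, and 179, 122 and 109 CPM in BM progenitors. The 3 groups overlapped, and Runx2ko replicate 1 lay within the range of the rest. The difference was -0.45 between Runx2ko and Runx2wt (SE 0.27; interval -1.05 to 0.16; adjusted p = 0.695) and 0.30 between Runx2wt and BM progenitors (SE 0.27; adjusted p = 0.463), neither passing the edgeR test. An annotated antisense gene overlaps Cebpa, and whether strand was used in counting is not stated. Tags of the antisense gene therefore cannot be told apart from those of Cebpa. How tags in the other overlaps named below were assigned is not stated either.

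Cebpb (ENSMUSG00000056501, chr2:167688915-167690418, plus strand), the inducible factor of emergency granulopoiesis and macrophage activation, had 98.0, 225 and 344 CPM in Runx2ko, 204, 261 and 397 CPM in Runx2wt, and 195, 233 and 208 CPM in BM progenitors. The transformed libraries spread more widely than the BM progenitors, and the groups overlapped. The SD of log2 CPM was 0.919 in Runx2ko, 0.487 in Runx2wt and 0.131 in BM progenitors. Tested genes in general spread in the same order, with median SDs of 0.432, 0.289 and 0.195. The difference was -0.37 between Runx2ko and Runx2wt (interval -1.26 to 0.52; adjusted p = 0.845, edgeR) and -0.01 without Runx2ko replicate 1 (interval -0.60 to 0.57). Tmem189, itself in the table of raw counts, overlaps Cebpb on the other strand.

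Cebpd, which encodes the acute-phase factor C/EBP-delta (ENSMUSG00000071637, chr16:15887286-15891031, plus strand), had 12.3, 154 and 249 CPM in Runx2ko, 102, 159 and 110.4 CPM in Runx2wt, and 60.2, 57.7 and 52.7 CPM in BM progenitors. All 3 Runx2wt libraries, and Runx2ko replicates 2 and 3, lay above all BM progenitor libraries, while Runx2ko replicate 1 lay below them. The means were 138 ± 119 CPM in Runx2ko, 124 ± 30.8 CPM in Runx2wt and 56.9 ± 3.84 CPM in BM progenitors (SD, n = 3 each). With all 9 libraries the difference between Runx2wt and BM progenitors was 1.12 (SE 0.73; interval -0.51 to 2.76) and did not pass the edgeR test (adjusted p = 0.314). Without Runx2ko replicate 1, which the test uses for the spread alone, the same difference of 1.12 had an SE of 0.22 (interval 0.63 to 1.61; adjusted p = 0.00387). For Runx2ko against BM progenitors the difference was 1.29 (adjusted p = 0.249) with all libraries and 1.82 without replicate 1, a 3.53-fold higher level (interval 1.29 to 2.35 on the log2 scale; adjusted p = 0.000443). Runx2ko and Runx2wt differed by 0.16 with all libraries (interval -1.44 to 1.76; adjusted p = 0.968), by -0.55 with limma-voom, and by 0.70 in edgeR without replicate 1 (interval 0.18 to 1.22; unadjusted p = 0.0133, adjusted p = 0.479). Fitted on the compared libraries alone, Runx2wt against BM progenitors gave 1.13 (adjusted p = 0.0016), a test that 33.9% of genes passed. Spidr, itself in the table of raw counts, overlaps Cebpd on the other strand.

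Cebpe (ENSMUSG00000052435, chr14:54710360-54712174, minus strand), needed for secondary granules and for eosinophils, had 1.29, 8.94 and 13.8 CPM in Runx2ko, 33.3, 9.15 and 2.23 CPM in Runx2wt, and 44.2, 28.9 and 27.6 CPM in BM progenitors. All Runx2ko libraries lay below all BM progenitors, and Runx2wt replicate 1 lay among the BM progenitors. The lowest values rest on 4 tags in Runx2ko replicate 1 and 8 tags in Runx2wt replicate 3. Within Runx2wt the SD of log2 CPM was 1.82, larger than for 99.2% of tested genes. The difference between Runx2ko and BM progenitors was -2.04 (SE 0.88; interval -4.02 to -0.07), with an unadjusted p of 0.0439 and an adjusted p of 0.137 in the edgeR test. Without Runx2ko replicate 1 it was -1.58, with an interval of -3.18 to 0.03 that held 0 (adjusted p = 0.128, edgeR). Runx2wt differed from BM progenitors by -1.15 with all libraries (interval -3.04 to 0.74, adjusted p = 0.376, edgeR). Eosinophil markers were near 0 in the transformed libraries, as given above. In Runx2wt replicate 1 these markers summed to 4.52 CPM, while Cebpe had 33.3 CPM there. Whether Cebpe and these markers go together was not tested.

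Cebpg (ENSMUSG00000056216), the C/EBP-gamma dimer partner, had 131, 84.1 and 103 CPM in Runx2ko, 78.1, 84.8 and 92.1 CPM in Runx2wt, and 74.1, 63.7 and 68.2 CPM in BM progenitors. Both transformed groups lay above every BM progenitor library, and the Runx2ko and Runx2wt ranges overlapped. It rose in Runx2ko against BM progenitors by 0.62 (SE 0.19; interval 0.21 to 1.04; adjusted p = 0.0481, edgeR), a 1.54-fold higher level. The means were 106 ± 23.4 CPM in Runx2ko, 85.0 ± 7.00 CPM in Runx2wt and 68.6 ± 5.23 CPM in BM progenitors (SD, n = 3 each). The call held in 2 of 19 alternative settings, which were DESeq2 (adjusted p = 0.0413; 12.8% of genes called) and edgeR without Runx2ko replicate 2 (adjusted p = 0.0247). Over the 19 settings the difference ran from 0.43 to 0.76 and the adjusted p from 0.025 to 0.17. Without Runx2ko replicate 1, the highest library, the difference was 0.44 (adjusted p = 0.0812). Runx2wt against BM progenitors gave 0.31 (interval -0.11 to 0.73; adjusted p = 0.284). In the annotation Gm44836 and Gm45094 overlap Cebpg on the same strand, so strand could not separate them from it. Gm45095 overlaps it on the other strand.

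Counted together, none of the 6 genes passed the edgeR test between Runx2wt and BM progenitors, where 13.5% of all tested genes did. None passed between Runx2ko and Runx2wt, where 0.0% of tested genes did. There the unadjusted p was under 0.05 for 886 genes. Calls by DESeq2 numbered 48 (0.242%) and by limma-voom 0 (0.0%), with none of the 6 among them. Cebpg alone passed between Runx2ko and BM progenitors, where 17.2% of tested genes did. The last comparison shares its BM progenitor libraries with the first. Without Runx2ko replicate 1, Cebpd passed in both comparisons with BM progenitors, against 28.0% of tested genes for Runx2wt and 28.5% for Runx2ko, and none passed between Runx2ko and Runx2wt, against 0.043%. The groups did not overlap for Cebpd and Cebpg between Runx2wt and BM progenitors (49.3% of tested genes), and for Cebpe and Cebpg between Runx2ko and BM progenitors (38.4%), to which Cebpd was added without Runx2ko replicate 1 (58.6%). No gene of the 6 separated Runx2ko from Runx2wt (9.68%). A share near the background is not a result about these genes.

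**Figure D2:**
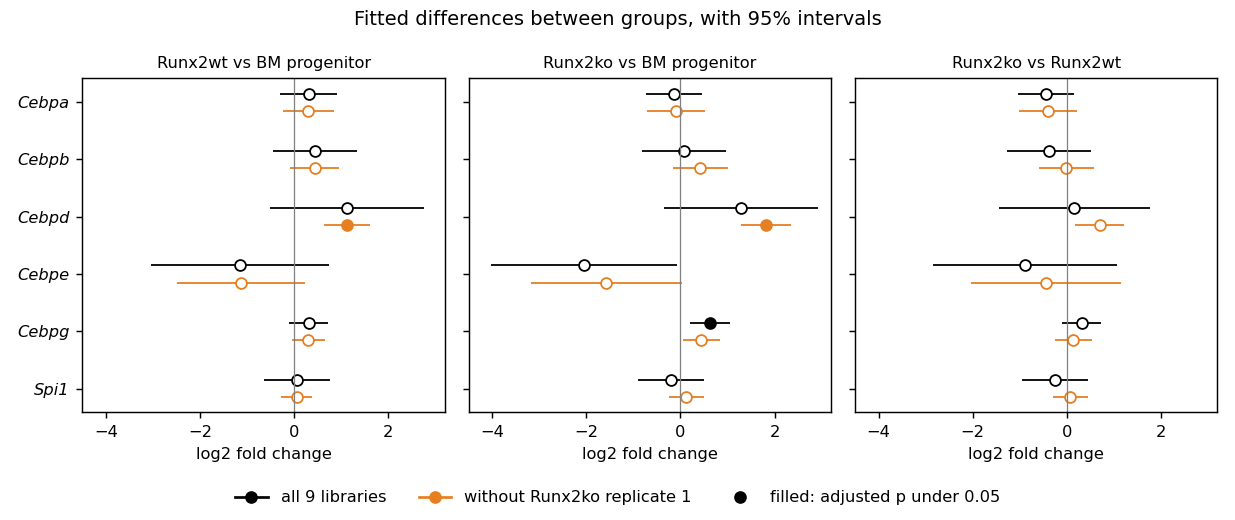
Log2 fold changes of the 6 genes in the 3 comparisons, with 95% intervals from the edgeR fit, for all 9 libraries and without Runx2ko replicate 1. Filled points had an adjusted p under 0.05. The interval of Cebpd narrows most when that library is left out, and the Cebpd differences from BM progenitors are then 1.82 in Runx2ko and 1.12 in Runx2wt.

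Runx2ko replicate 1 separated the 6 genes further. Against the mean of the other 5 transformed libraries Cebpd was 12.6-fold lower in it, Cebpe 10.4-fold, Cebpb 2.92-fold and Spi1 2.51-fold lower, while Cebpg was 1.48-fold higher and Cebpa lay within their range. Over all tested genes this library lay below the other 5 transformed libraries in 27.6% and above them in 29.6%. It was more than 2-fold from the mean log2 CPM of those 5 in 25.3%. This library lay below all other 8 in 19.3% and above all of them in 22.1%. The same library held 3335 CPM of mast cell and basophil markers, among them 2002 CPM of Cpa3, and 567 CPM of Gata2, and it held 9.70 CPM of Csf1r. Whether these cells, the Runx2 level or another property of the library goes with the levels of the 6 genes was not tested.

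The shares of Cebpg, Cebpd and Cebpb in the summed C/EBP tags set Runx2ko replicate 1 apart as well. The Cebpa share of 32.3% and the Cebpe share of 0.361% in it lay within the range of the other libraries. Cebpg made up 36.5%, 14.3% and 12.1% of C/EBP tags in Runx2ko, 12.4%, 12.2% and 12.9% in Runx2wt, and 13.4%, 12.6% and 14.7% in BM progenitors. In Runx2ko replicate 1 the 95% exact binomial interval of that share was 33.7% to 39.4%, which covers counting error only. Outside that library its share stayed between 12.1% and 14.7%. Cebpd made up 3.43%, 26.2% and 29.3% in Runx2ko, 16.2%, 22.9% and 15.5% in Runx2wt, and 10.9%, 11.4% and 11.3% in BM progenitors. Cebpe made up 0.361% to 1.62% in Runx2ko, 0.312% to 5.28% in Runx2wt and 5.70% to 7.99% in BM progenitors. The binomial interval of the 5.28% in Runx2wt replicate 1, 4.55% to 6.09%, held the 5.70% of BM progenitor replicate 2. In CPM, Runx2wt and BM progenitors overlapped for Cebpe. Cebpb was the largest share in 7 of the 9 libraries. The tags of Spi1 were 1.17, 2.78 and 2.68 times those of Cebpa in Runx2ko, 1.40, 2.08 and 2.88 times in Runx2wt, and 1.93, 2.43 and 2.91 times in BM progenitors, so the groups overlapped. These shares are descriptions without a test.

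**Figure D3:**
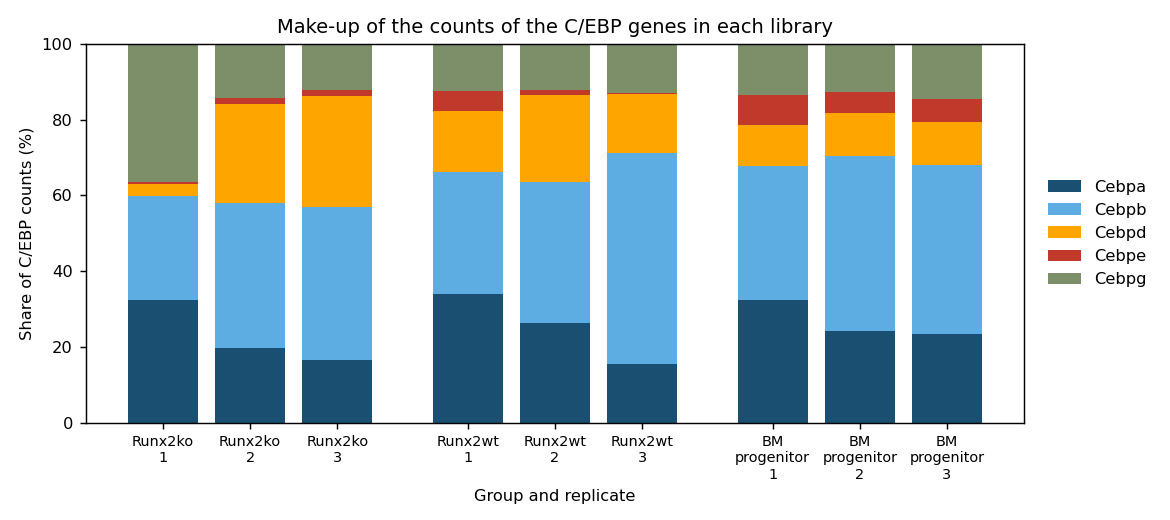
Share of each of the 5 C/EBP genes in the summed C/EBP tags of every library, in percent, with Runx2ko, Runx2wt and BM progenitors side by side. Cebpg takes 36.5% in Runx2ko replicate 1 and 12.1% to 14.7% in the other libraries.

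Among all tested genes with a mean of at least 10 CPM, those whose log2 CPM followed each factor most closely over the 9 libraries were Nuak2, Hp and Mgst1 for Spi1 (r of 0.993, 0.993 and 0.986), and Mgl2, Vsir and Gm45837 for Cebpd (0.992, 0.991 and 0.986). Fas, Syk and Zfp710 followed Cebpb (0.967, 0.957 and 0.954), and Plk4, Gatm and Lta4h followed Cebpe (0.959, 0.940 and 0.935). Dennd1c, Ing4 and Saraf followed Cebpg (0.987, 0.975 and 0.971), and Gm9385, Lockd and Ctr9 followed Cebpa (0.942, 0.881 and 0.873). These libraries share 3 groups and 1 library that stands apart. Without it, Nuak2 and Hp remained among the 3 closest genes of Spi1 and Gm9385 of Cebpa, and none of the 3 remained for Cebpb, Cebpd, Cebpe or Cebpg. Among the 6 genes themselves, Cebpd and Spi1 correlated at 0.87 over 9 libraries and 0.61 over 8. Cebpd and Cebpg correlated at -0.23 over 9 and 0.90 over 8.

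Genes that C/EBP factors and PU.1 are known to regulate were counted beside them. Of 14 granulocyte genes regulated by C/EBP factors, 4 fell and 0 rose in Runx2wt against BM progenitors, and 4 fell and 0 rose in Runx2ko against BM progenitors. Of all tested genes, 5.23% fell and 8.28% rose in Runx2wt, and 7.14% fell and 10.0% rose in Runx2ko. In both, the 4 were Mpo and Prg2, granule proteins of neutrophil precursors and eosinophils, and Ltf and Camp, proteins of secondary granules. Mpo had 67.0, 21.3 and 80.2 CPM in Runx2ko, 12.8, 10.2 and 5.01 CPM in Runx2wt, against 3055, 2939 and 2168 CPM in BM progenitors. Its difference from BM progenitors was -5.60 in Runx2ko (adjusted p = 0.00138, edgeR) and -8.16 in Runx2wt (adjusted p = 0.000345). Prg2 differed by -7.34 in Runx2ko and -9.76 in Runx2wt, and Camp by -4.96 in Runx2ko and -6.91 in Runx2wt. The median over the list was -1.02 in Runx2ko and -3.23 in Runx2wt against BM progenitors, where the median of all tested genes was 0.07 in Runx2ko and 0.01 in Runx2wt. Several genes of this list also belong to the neutrophil and eosinophil markers given above. Leaving out Runx2ko replicate 1 raised the number that fell in Runx2wt to 10, with 0 rising, where 12.1% of genes fell and 15.9% rose. In Runx2ko, 4 then fell and 1, Lcn2, rose, where 12.6% of genes fell and 15.9% rose. With any other single library left out, 4 or 5 fell in Runx2wt, where 0.723% to 7.70% of all genes fell. Without Runx2wt replicate 1, 1 rose in Runx2wt and 1 in Runx2ko, where 4.67% and 7.31% of all genes rose. S100a8 had 39.8, 2461 and 4452 CPM in Runx2ko, 127, 1443 and 303 CPM in Runx2wt, and 5430.3, 4516 and 3845 CPM in BM progenitors. With all 9 libraries it did not pass in either comparison, while without Runx2ko replicate 1 it fell in Runx2wt by 2.88 (adjusted p = 0.0097, edgeR).

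Of 16 genes regulated by PU.1, 3 rose and 1 fell in Runx2ko against BM progenitors, and 2 rose and 0 fell in Runx2wt against BM progenitors. That is 25.0% of the list in Runx2ko and 12.5% in Runx2wt, against 17.2% and 13.5% of all tested genes, so the Runx2wt share lay near the background. Fcer1g and Tyrobp, adaptors that carry activation motifs for surface receptors, rose in both. Tyrobp had 531, 569 and 1011 CPM in Runx2ko, 672, 901 and 673 CPM in Runx2wt, against 356, 346 and 397 CPM in BM progenitors. Its difference from BM progenitors was 0.94 in Runx2ko (adjusted p = 0.0332, edgeR) and 1.03 in Runx2wt (adjusted p = 0.0301). Btk, a cytoplasmic kinase, rose by 0.52 in Runx2ko, and Msr1, a macrophage scavenger receptor, fell by 2.60 in Runx2ko. The list median was 0.42 in Runx2ko and 0.70 in Runx2wt. Leaving out any single BM progenitor library left 0 of the 16 called in either comparison. Of all genes, only 3.53% to 4.32% were then called in Runx2ko and 1.82% to 2.87% in Runx2wt. With any single Runx2wt library or Runx2ko replicate 2 or 3 left out, 0 or 1 rose and 0 or 1 fell in Runx2ko, where 11.0% to 15.6% of all genes were called. Leaving out Runx2wt replicate 2 left 0 called in Runx2wt, where 3.44% of all genes were called. By contrast, leaving out Runx2ko replicate 1 raised the calls to 6 up and 2 down in Runx2ko and 5 up and 1 down in Runx2wt, where 28.5% of all genes were called in Runx2ko and 28.0% in Runx2wt.

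Among 29 regulators and partners, 27 were tested, and 5 rose and 4 fell in Runx2ko against BM progenitors, while 3 rose and 4 fell in Runx2wt. That is 33.3% of those tested in Runx2ko and 25.9% in Runx2wt, against 17.2% and 13.5% of all tested genes. The list median was 0.16 in Runx2ko and -0.83 in Runx2wt. The pseudokinase genes Trib3 and Trib1 moved in opposite directions. Trib3 had 708, 302 and 213 CPM in Runx2ko, 96.0, 212 and 266 CPM in Runx2wt, against 31.9, 39.9 and 36.3 CPM in BM progenitors, and rose by 3.50 in Runx2ko (adjusted p = 0.00464, edgeR) and 2.41 in Runx2wt (adjusted p = 0.0162). Trib1, whose product directs the degradation of C/EBP-alpha, had 4.53, 4.57 and 5.42 CPM in Runx2ko, 4.70, 7.48 and 17.0 CPM in Runx2wt, against 28.6, 31.0 and 41.0 CPM in BM progenitors. It fell by 2.79 in Runx2ko (adjusted p = 0.00677) and by 1.80 in Runx2wt (adjusted p = 0.0272). Atf5, a leucine zipper factor, rose by 2.02 in Runx2ko and 1.87 in Runx2wt. Gfi1, a repressor in granulocyte development, rose by 1.80 in Runx2ko and 1.87 in Runx2wt. Egr2, an opponent of Gfi1 in the monocyte choice, fell by 3.40 in Runx2ko and 2.43 in Runx2wt. With 1 BM progenitor library left out, 2 rose and 2 fell in Runx2ko, and 1 rose and 0 or 1 fell in Runx2wt. The share of all genes called was then 3.53% to 4.32% in Runx2ko and 1.82% to 2.87% in Runx2wt. In Runx2wt, 1 rose and 1 fell without Runx2wt replicate 2, 3 rose and 0 fell without Runx2wt replicate 1, and 3 rose and 6 fell without Runx2ko replicate 3. Of all genes, 3.44%, 7.63% and 17.5% were called there, in the same order. Without Runx2ko replicate 1, 6 rose and 11 fell in Runx2ko and 5 rose and 13 fell in Runx2wt, where 28.5% of all genes were called in Runx2ko and 28.0% in Runx2wt.

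ATF4, a partner of C/EBP-gamma, drives genes of amino acid supply and stress. Of 13 such genes, 5 rose and 3 fell in Runx2ko against BM progenitors, and 4 rose and 2 fell in Runx2wt, Trib3 among those that rose in both. That is 61.5% of the list in Runx2ko and 46.2% in Runx2wt, against 17.2% and 13.5% of all tested genes. The list median was 0.60 in Runx2ko and 0.72 in Runx2wt. Chac1, a glutathione-degrading enzyme, had 70.2, 49.5 and 73.4 CPM in Runx2ko, 37.4, 40.2 and 15.6 CPM in Runx2wt, against 8.21, 9.98 and 9.34 CPM in BM progenitors. It rose by 2.81 in Runx2ko (adjusted p = 0.00295, edgeR) and 1.76 in Runx2wt (adjusted p = 0.015). Gpt2, an alanine transaminase, rose by 1.84 in Runx2ko and 1.48 in Runx2wt. Slc7a11, a subunit of the cystine transporter, fell by 1.26 in Runx2ko and 1.85 in Runx2wt. With 1 BM progenitor library left out, 3 or 4 rose and 0 or 1 fell in Runx2ko, and 0 or 1 rose and 0 or 1 fell in Runx2wt. Calls over all genes were then 3.53% to 4.32% in Runx2ko and 1.82% to 2.87% in Runx2wt. Without Runx2wt replicate 2, 1 rose and 0 fell in Runx2wt, where 3.44% of all genes were called. Without Runx2ko replicate 1, 6 rose and 3 fell in both, where 28.5% of all genes were called in Runx2ko and 28.0% in Runx2wt.

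Of 15 inflammatory genes regulated by C/EBP-beta and C/EBP-delta, 13 were tested, and 0 rose and 2 fell in Runx2ko against BM progenitors, while 1 rose and 1 fell in Runx2wt. That is 15.4% of those tested in each, near the 17.2% of all tested genes called in Runx2ko and the 13.5% in Runx2wt. The list median was -0.22 in Runx2ko and 0.61 in Runx2wt. Saa3, an acute-phase protein, had 11.0, 591 and 562 CPM in Runx2ko, 461, 1007 and 1049 CPM in Runx2wt, against 62.2, 48.8 and 44.6 CPM in BM progenitors, and rose by 4.01 in Runx2wt (adjusted p = 0.0366, edgeR). Arg1, arginase of alternatively activated macrophages, was at 0 to 0.323 CPM in Runx2ko and 0.277 to 0.564 CPM in Runx2wt, against 13.9 to 38.0 CPM in BM progenitors. It fell in Runx2ko (adjusted p = 0.0015) and in Runx2wt (adjusted p = 0.00221). The Saa3 call was lost when any BM progenitor library, or Runx2wt replicate 2 or 3, was left out, and also with limma-voom and the authors' normalized values at either pseudocount. Without Runx2ko replicate 1, 5 rose and 3 fell in Runx2ko and 3 rose and 2 fell in Runx2wt, where 28.5% of all genes were called in Runx2ko and 28.0% in Runx2wt. No gene of the 5 lists passed between Runx2ko and Runx2wt in the edgeR test, with or without that replicate. DESeq2 called 3 of 14 granulocyte genes and 1 of 29 regulators higher in Runx2ko than in Runx2wt, where 0.177% of all genes were higher. Without Runx2ko replicate 1 it called 4 granulocyte genes and 1 regulator higher, where 0.223% of all genes were.

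**Figure D4:**
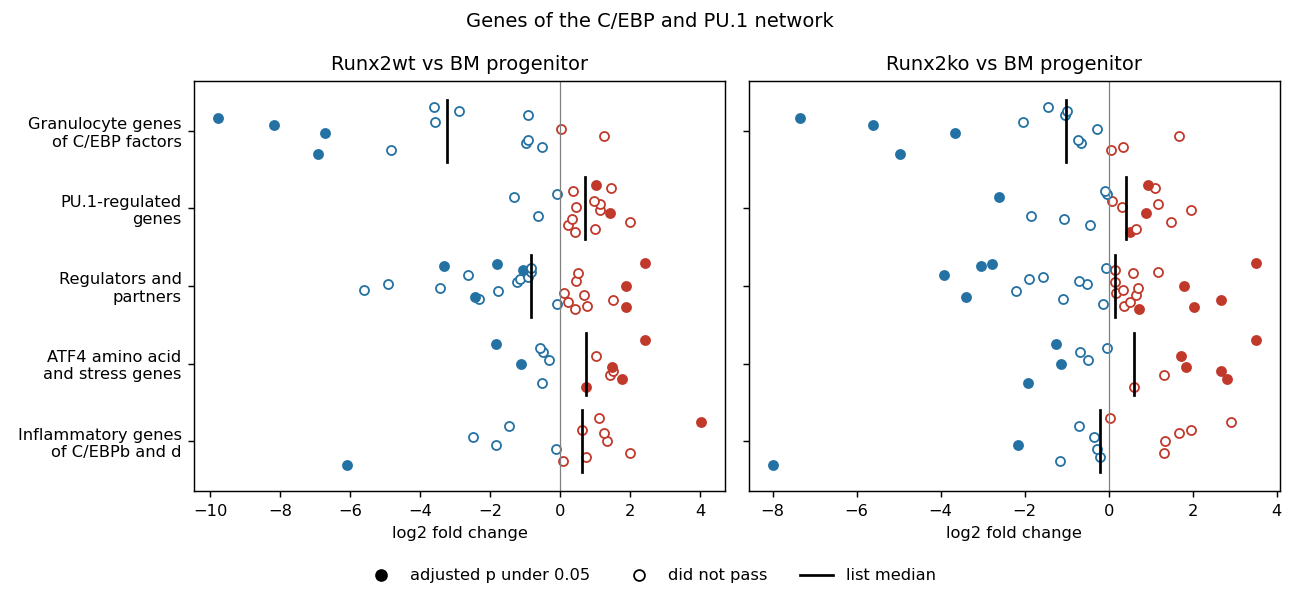
Log2 fold changes of every tested gene of the 5 lists, 1 point a gene, for Runx2wt against BM progenitors (left) and Runx2ko against BM progenitors (right), from the edgeR fit of all 9 libraries. Filled points had an adjusted p under 0.05, blue is lower and red higher than in BM progenitors, and bars mark list medians. The granulocyte genes have the lowest list median in both panels, -3.23 in Runx2wt and -1.02 in Runx2ko, while the lowest single gene is Prg2 at -9.76 in Runx2wt and Arg1 at -7.99 in Runx2ko.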

How the data were processed

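Gene-level raw counts of 9 QuantSeq libraries were used as deposited; the submitters' processing notes name FastQC, STAR, DESeq2 and the GRCm38 build without their settings, and no source used here gives the counting strand. A second deposited table holds normalized values from the authors, written with decimal commas, whose unit is not stated; its values served only as an alternative, on the scale log2(value + 1) or log2(value + 0.25), where folds of low genes are understated. Of 21159 identifiers, 21042 matched a symbol.

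Counts were tested with edgeR 4.0.16 (R 4.3.3): TMM scaling, filterByExpr, quasi-likelihood F-test, all 9 libraries sharing the spread, and Benjamini-Hochberg adjustment over 11196 genes at 0.05. Standard errors and 95% intervals come from that fit. Alternatives used DESeq2 1.42.0, limma 3.58.1 (voom), other scaling and filters, and leaving out each library. The steps were tested on simulated data. Two-sided p-values measure the spread between samples that the labels call independent biological replicates. The extraction protocol in the labels names T-ALL cells, which differs from the cells the other labels describe.

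The members and lists were chosen with earlier results of these data known. Named were the 6 genes, Runx2, the 3 closest genes of each, and up to 4 genes of a list by smallest p in a comparison, or the most highly expressed where none passed. Markers Cpa3, Gata2 and Csf1r were named after their values were seen. Replicate numbers are shared by the groups, but same-numbered libraries deviated from their group means together at correlations of only -0.066 to 0.072. No pairing was therefore seen. With 3 libraries a group and Runx2ko replicate 1 standing apart, this check could miss a pairing.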

Additional observations from a re-analysis of the deposited data

How the results depend on the processing

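Most of the precision is limited by 3 libraries a group and by Runx2ko replicate 1, and Cebpe also by low counts. The 2 alternatives that combine another tool with leaving out that library were chosen after seeing the data. The cause of each change below was not tested. Of the 6 genes, 0 passed between Runx2wt and BM progenitors. Cebpd brought this to 1 with only the compared libraries fitted and without Runx2ko replicate 1, in edgeR, DESeq2 or voom, and leaving out single libraries gave 0 to 1. Between Runx2ko and BM progenitors, 1 passed and 0 did with RLE factors, voom, no filter, only the compared libraries, the replicate block, or the authors' normalized values at either pseudocount, and leaving out single libraries gave 0 to 1. The genes called between Runx2wt and BM progenitors numbered 1513, against 3679 with only the compared libraries, 209 to 3256 with a library left out, and 3399 (DESeq2) or 3264 (voom) without Runx2ko replicate 1. Between Runx2ko and Runx2wt they numbered 0, against 48 with DESeq2, 0 to 5 with a library left out, and 75 (DESeq2) or 7 (voom) without Runx2ko replicate 1. Between Runx2ko and BM progenitors they numbered 1924, against 1262 with only the compared libraries, 405 to 3311 with a library left out, and 3475 (DESeq2) or 3413 (voom) without Runx2ko replicate 1. With voom the calls split into 890 higher and 989 lower in Runx2ko, against 1125 and 799 in edgeR.

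The differences below changed sign. Spi1 in Runx2wt against BM progenitors ran from -0.050 to 0.11 with a library left out, and was -0.0022 without BM progenitor replicate 2. In Runx2ko against Runx2wt, Cebpb became 0.0092 with voom without Runx2ko replicate 1. Cebpd there became -0.55 with voom, was -0.64 and -0.65 on the authors' normalized values, and ran from -0.56 to 0.70 with a library left out. Cebpe there ran from -1.48 to 0.53, and was 0.065 with voom without Runx2ko replicate 1. Spi1 there ran from -0.54 to 0.073, and was 0.072 (DESeq2) and 0.075 (voom) without Runx2ko replicate 1. In Runx2ko against BM progenitors, Cebpa ran from -0.30 to 0.10, Cebpb from -0.39 to 0.42 and Spi1 from -0.49 to 0.13 with a library left out. Cebpb there became -0.10 with voom and -0.12 with the authors' values at either pseudocount, and Spi1 0.11 (DESeq2) and 0.12 (voom) without Runx2ko replicate 1.

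With the replicate block, 922 genes were called between Runx2wt and BM progenitors, 1120 between Runx2ko and BM progenitors and 0 between Runx2ko and Runx2wt, Cebpd between Runx2ko and Runx2wt became -0.15, and Cebpb between Runx2ko and BM progenitors became -0.10. The Saa3 call in Runx2wt was lost under the block as well.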
